A study of Homo sapiens with 40 samples.

Results

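Chromatin accessibility after 12 h of epidermal growth factor (EGF) was compared with that after 12 h of heregulin (HRG) in BT474R cells, to find out at which sites the chromatin of a HER2-overexpressing, trastuzumab-resistant line differs between the ligands. Members were found by merging the peaks of the 2 EGF and 2 HRG libraries wherever they overlapped by at least 1 bp on chromosomes 1 to 22 and X. This gave 46919 regions from 4 of the 40 ATAC-seq libraries of the series. ATAC-seq uses a transposase to insert sequencing adapters into open chromatin, and each library was represented here by the list of peaks called in it. BT474R is 1 clone, derived from the BT474 breast ductal carcinoma line by growth in trastuzumab, an antibody against HER2. All 4 libraries came from serum-starved BT474R cells, 1 pair treated with EGF (EGF-BT474R) and 1 pair with HRG (HRG-BT474R), both for 12 h. The ligands were not given at the same concentration, so ligand and dose cannot be told apart. Cells treated with vehicle (water) for 12 h served as the study's controls and are quoted for reference. The study's methods state that each treatment was done in duplicate, with cells plated in wells. The labels number the libraries of a group, and no source used here ties a number to an independent culture, so p-values measure the spread between these libraries, which may be in part technical. In bulk cells, an opening in fewer cells and a weaker opening in every cell cannot be told apart.

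EGF binds EGFR (HER1), whereas HRG binds HER3 or HER4. Both kinds of receptor form dimers with HER2, the receptor that trastuzumab binds and that has no known ligand of its own, and both signal through the MAP kinase and PI3 kinase pathways. One end point of MAP kinase signaling is AP-1, the family of FOS and JUN dimers, which bind the sequence TGACTCA and are known for their presence at ligand-induced distal enhancers.

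Some of the regions that differed between the ligands are shown here by the reference sequence within 100 bases of their summit, so that the AP-1 sites counted in the results can be seen. Regions are named by the nearest protein-coding gene start, all are given on the plus strand of GRCh38, and capitals mark matches to TGACTCA on either strand (TGAGTCA is its reverse complement). Of the regions with a peak in both EGF-BT474R and neither HRG-BT474R library, the 4 with the highest mean peak rank lay in introns of ARFGEF2 (chr20:48983496-48983696), RAB27B (chr18:54776307-54776507) and SLC1A2 (chr11:35337373-35337573) and in an intergenic stretch near RPE65 (chr1:68384522-68384722). ARFGEF2 and SLC1A2 hold 1 and 2 matches, and the other two hold none.
ARFGEF2: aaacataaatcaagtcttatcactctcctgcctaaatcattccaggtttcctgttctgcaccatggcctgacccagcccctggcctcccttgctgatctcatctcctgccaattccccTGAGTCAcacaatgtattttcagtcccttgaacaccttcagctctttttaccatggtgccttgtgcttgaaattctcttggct
RAB27B: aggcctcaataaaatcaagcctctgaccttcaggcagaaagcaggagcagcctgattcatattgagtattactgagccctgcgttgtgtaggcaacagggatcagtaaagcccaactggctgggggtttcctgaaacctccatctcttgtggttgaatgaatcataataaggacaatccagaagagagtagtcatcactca
SLC1A2: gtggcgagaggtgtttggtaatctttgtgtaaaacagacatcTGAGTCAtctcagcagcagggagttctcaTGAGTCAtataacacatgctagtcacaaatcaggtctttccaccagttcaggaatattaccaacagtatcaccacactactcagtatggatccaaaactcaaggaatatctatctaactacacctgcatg
RPE65: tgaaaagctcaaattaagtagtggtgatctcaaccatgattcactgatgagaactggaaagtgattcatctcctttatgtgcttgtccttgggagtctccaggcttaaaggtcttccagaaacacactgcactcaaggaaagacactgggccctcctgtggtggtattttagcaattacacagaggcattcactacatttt

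For the opposite pattern, a peak in both HRG-BT474R and neither EGF-BT474R library, the 4 highest-ranked regions lay in introns of CTNND2 (chr5:11734502-11734702) and HECTD4 (chr12:112286164-112286364) and in intergenic stretches near ADCY2 (chr5:7391961-7392161) and DAG1 (chr3:49461737-49461937). None of them holds the AP-1 sequence in this window.
CTNND2: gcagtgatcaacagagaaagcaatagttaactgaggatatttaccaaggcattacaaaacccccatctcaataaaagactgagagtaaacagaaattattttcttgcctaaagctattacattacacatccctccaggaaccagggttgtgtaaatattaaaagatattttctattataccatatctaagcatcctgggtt
ADCY2: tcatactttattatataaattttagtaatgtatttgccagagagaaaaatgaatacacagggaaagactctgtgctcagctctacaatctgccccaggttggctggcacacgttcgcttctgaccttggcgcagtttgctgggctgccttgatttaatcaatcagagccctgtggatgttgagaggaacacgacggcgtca
DAG1: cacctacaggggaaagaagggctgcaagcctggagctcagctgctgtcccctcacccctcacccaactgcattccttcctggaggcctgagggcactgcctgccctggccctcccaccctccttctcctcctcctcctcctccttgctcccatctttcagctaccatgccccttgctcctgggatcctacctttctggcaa
HECTD4: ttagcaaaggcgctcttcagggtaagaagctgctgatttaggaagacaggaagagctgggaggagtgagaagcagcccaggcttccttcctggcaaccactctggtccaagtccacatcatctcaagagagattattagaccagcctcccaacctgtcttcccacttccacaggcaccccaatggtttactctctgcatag

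Finally, 2 regions with a single peak in each of the 4 lists are shown, whose peak scores ranked higher in both EGF-BT474R libraries. The same was found in 25.5% of all regions with a single peak in each list. These 2 were among the 10 such regions with the smallest limma p, none of which passed among such regions (limma adjusted p = 0.147). The rest of those 10 ranked higher in HRG-BT474R, held no match and are not shown. The first shown is intergenic near SERINC3 (chr20:44495822-44496022, 2 matches). The second lies in an intron of EGFR (chr7:55132998-55133198, 1 match), the gene of the EGF receptor itself. The EGFR region was picked after its values were seen, and both regions replaced planned ones that held no match.
SERINC3: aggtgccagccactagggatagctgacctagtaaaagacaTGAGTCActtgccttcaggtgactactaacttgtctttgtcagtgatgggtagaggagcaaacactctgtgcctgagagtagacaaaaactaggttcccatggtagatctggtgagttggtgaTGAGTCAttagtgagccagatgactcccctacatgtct
EGFR: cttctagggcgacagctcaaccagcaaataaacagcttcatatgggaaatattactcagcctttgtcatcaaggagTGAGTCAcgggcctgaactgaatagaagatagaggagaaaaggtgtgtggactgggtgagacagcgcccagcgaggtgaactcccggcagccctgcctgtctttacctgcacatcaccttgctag

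The luminal identity of the cells was checked first. All 11 luminal epithelial markers, among them EPCAM, KRT8, KRT18, GATA3 and FOXA1, had a peak within 1 kb of a start in all 4 libraries, whereas 6 of 7 fibroblast markers and 6 of 7 leukocyte markers (PTPRC, CD3E and SPI1 among them) had none in any. The remaining fibroblast and leukocyte markers, COL1A1 and CD68, had one in all 4. Of all 19962 protein-coding genes, 58.9% had a promoter peak in all 4 libraries and 7247 had none in any. Of 7 basal markers, KRT5 and OXTR had a promoter peak in all 4 libraries, TP63 in 3, and KRT14, KRT6A, KRT17 and ACTA2 in none. CDH5, VWF and KDR of 5 endothelial markers had a promoter peak in all 4. The endothelial and basal markers with peaks had them in both ligand groups, apart from TP63, which lacked one in EGF-BT474R replicate 2.

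HRG-BT474R had more peaks than EGF-BT474R. The lists held 38205 and 37476 peaks in EGF-BT474R and 45808 and 42604 in HRG-BT474R, so the groups did not overlap (means 37840.5 and 44206, exact permutation test, two-sided, p = 0.333, the smallest that 2 against 2 libraries allow). The 12 h control libraries held 32479 and 40331. Peaks covered 23.6 and 22.9 Mb in EGF-BT474R against 28.1 and 26.4 Mb in HRG-BT474R. Promoters, taken as 1 kb either side of an annotated start, held 42.2% and 42.8% of the peaks in EGF-BT474R and 38.9% and 40.2% in HRG-BT474R (difference of means 2.94 percentage points, exact permutation test, two-sided, p = 0.333). With the 37476 highest-scoring peaks of each list, the promoter shares were 42.5% and 42.8% against 42.4% and 42.3%, a difference of 0.295 percentage points. Read totals were not analysed here, so the depth of each library is unknown. Where a list has no peak, the chromatin may still be open below the level at which peaks were called.

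The Jaccard index of covered bases was 84.5% between the EGF-BT474R replicates and 84.4% between the HRG-BT474R replicates, and the 4 pairs of an EGF with an HRG library gave 77.5% to 81.1%. Most regions were common to both ligands: 34458 of the 46919 had a peak in all 4 lists. Only 100 regions had a peak in both EGF-BT474R and neither HRG-BT474R library (EGF only), which is 0.213% of all regions. The opposite pattern (HRG only) was found for 3401 regions, which is 7.25%. Regions with a peak in 1 library alone numbered 316 (replicate 1) and 84 (replicate 2) in EGF-BT474R, and 3638 and 858 in HRG-BT474R. HRG-BT474R replicate 1, the longest of the 4 lists, thus had more regions of its own than there were HRG only regions. Without 1 library, EGF only regions numbered 187 to 418 and HRG only regions 4310 to 7086, the last without HRG-BT474R replicate 2.

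The excess of HRG only regions was much smaller when the lists were brought to the same length. With equal numbers of top peaks, 672 regions were EGF only (1.63% of 41170) and 812 were HRG only (1.97%). Of those 672 regions, 533 and 427 did have a peak in the full lists of HRG-BT474R replicates 1 and 2, below the rank of the last peak kept. With a score of at least 400, where the lists still differed in length, the counts were 46 and 2528. In the plot of these counts by setting, HRG only regions outnumber EGF only regions by a wide margin in the lists as deposited and by a small one with equal numbers.

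**Figure D1:**
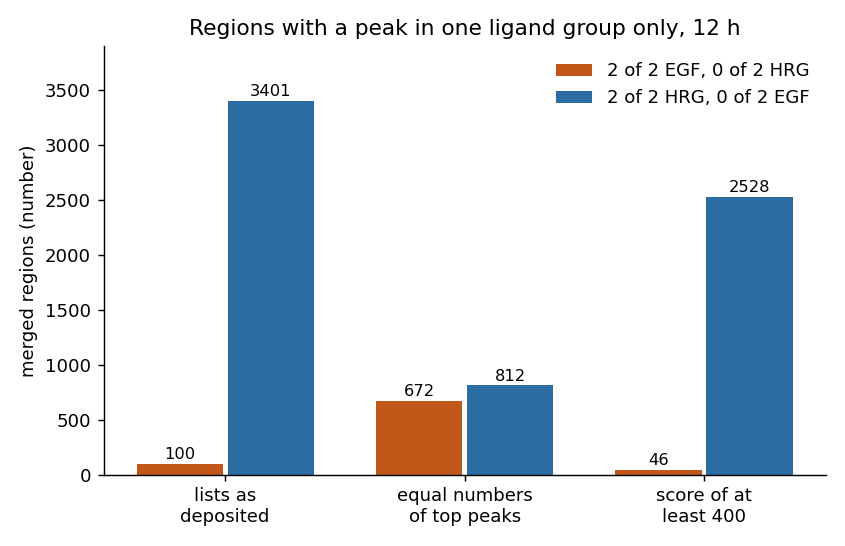
Number of merged regions (y axis) with a peak in both EGF-BT474R and neither HRG-BT474R library (orange) or the reverse (blue), for lists as deposited, for the 37476 highest-scoring peaks of each list, and for peaks with a score of at least 400. The counts are 100 and 3401 as deposited, 672 and 812 with equal numbers, and 46 and 2528 with the score minimum.

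Both sets were weak and mostly distal. The rank percentile of a region's peak score within its list (0 lowest, 100 highest) averaged over both libraries had a median of 8.72 over the 100 EGF only regions (range 1.04 to 32.4) and of 11.9 over the 3401 HRG only regions (range 0.184 to 64.0). In HRG-BT474R, 342 of the HRG only regions had a mean percentile above 25 and 10 were above 50, whereas in EGF-BT474R 1 EGF only region was above 25 and none above 50. Median widths were 315.5 bp and 327 bp, against 623 bp for regions in all 4 lists. Promoters held 14 of the 100 EGF only regions and 20.9% of the HRG only regions, against 43.6% of the regions in all 4 lists. Introns held 37 EGF only regions and intergenic stretches 48. Mean GC content within 100 bp of the summit was 49.99% and 49.8%, against 56.6% for regions in all 4 lists. The regions of lowest mean rank in either direction had scores just above the lowest score listed, 200. For EGF only these were PLXNA4 (scores 209.8 and 203.1) and PLXNB2 (201.2 and 205.6), and for HRG only ATP11B (201.3 and 201.7, at 302 kb) and RP1 (200.9 and 200.6). A region also fails the rule if 1 library alone loses its peak. Regions of higher mean rank could be as near to this in 1 library, such as SLC35B4 of EGF only (267.6 and 200.3) and EGR3 of HRG only (232.1 and 200.8).

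The sets differed most in AP-1 sequences. Of the 100 EGF only regions, 53 held TGACTCA on either strand within 100 bp of the summit (53.0%, 95% Wilson interval 43.3 to 62.5), whereas 215 of the 3401 HRG only regions did (6.32%, 5.55 to 7.19). Over all 46919 regions the share was 12.3%, and over the 4896 regions with a peak in 1 library it was 11.2%. With peaks cut to 200 bp either side of the summit before merging, a setting added after the data were seen, the EGF only share was 24.4% over 279 regions and the HRG only share 6.26%. With equal numbers of peaks the shares were 38.4% (258 of 672) and 3.82% (31 of 812), against 12.7% of all 41170 regions. Outside promoters, 44 of 86 EGF only regions (51.2%) and 184 of 2691 HRG only regions (6.84%) held the sequence, against 16.2% of all such regions. At promoters it was found in 9 of 14 EGF only regions and in 31 of 710 HRG only regions (4.37%), against 5.88% of all. The intervals cover counting error only, and no test was made, since regions are not replicates of a ligand.

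**Figure D2:**
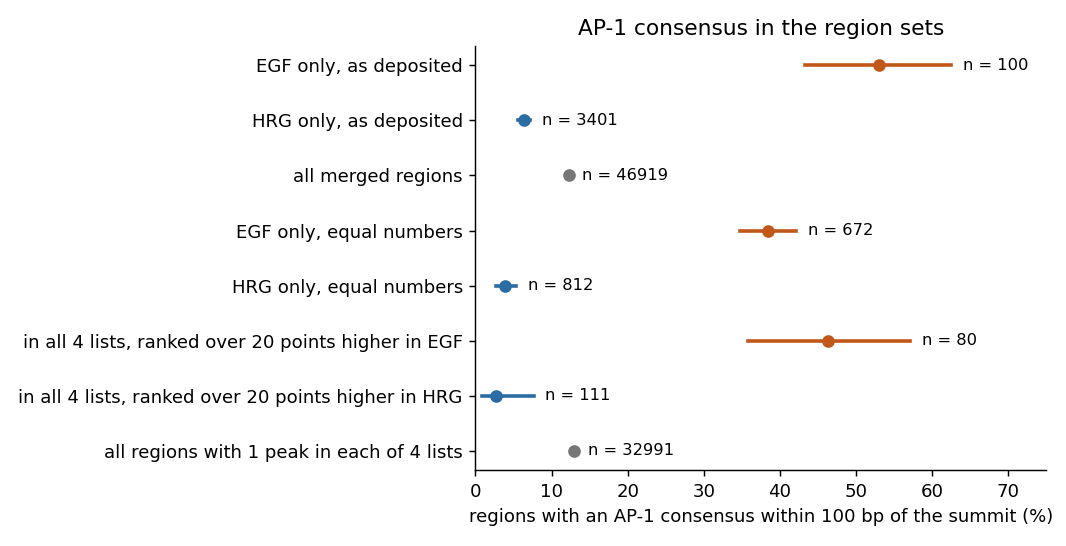
Share of regions with the AP-1 sequence TGACTCA on either strand within 100 bp of the summit (x axis, percent), with points for the share, bars for the 95% Wilson interval and n for the regions in each set. The 3 EGF sets (53.0%, 38.4% and 46.3%) lie above the shares over all regions (12.3% and 12.9%), and the 3 HRG sets (6.32%, 3.82% and 2.70%) lie below them.

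Other sequences differed less. Of 20 motifs searched on both strands, the GC-rich SP/KLF sequence GGGCGGG was found in 6 of the 100 EGF only and 5.44% of the HRG only regions, against 15.8% of all, and both sets lie mainly outside promoters. The C/EBP sequence TTGCNNAA was found in 10 of 100 EGF only and 14.5% of HRG only regions against 10.5% of all. The forkhead sequence TGTTTAC, bound by FOXA1, was found in 5 of 100 and in 10.5% against 7.78% of all. The Grainyhead sequence AACNGGTT, bound by epithelial GRHL factors, was found in 0 of 100 EGF only regions (upper 95% Wilson limit 3.70%) and in 5.09% of HRG only regions, against 3.86% of all. With equal numbers of peaks it was found in 1.64% of EGF only and 5.79% of HRG only regions, against 3.75% of all 41170.

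The same regions were then looked up in the other libraries of the series, which took no part in the choice. EGF only regions seldom had a peak at baseline or after 12 or 24 h without ligand. Of the 100, 4 and 5 had a peak in the 12 h control libraries of BT474R, 3 and 8 in the 24 h controls, and 6 and 3 at the untreated baseline. Over all 46919 regions the shares were, in the same order, 66.8% and 82.5%, 84.5% and 90.7%, and 96.0% and 87.6%. After 24 h of EGF, 91 and 88 of the 100 had a peak, near the 94.9% and 94.2% of all regions. After 24 h of HRG, 50 and 42 had one, against 97.5% and 90.2% of all. After 1 h, the ligands gave like shares, 68 and 56 with EGF and 57 and 65 with HRG, against 35 and 30 in the 1 h controls, whereas 92.2% to 98.3% of all regions had a peak in each of these 6 libraries. In BT474, the trastuzumab-sensitive parent line, 18 to 24 of the 100 had a peak in each baseline or control library and 42 to 56 in each EGF or HRG library. Over all regions the shares in these libraries were 79.7% to 82.8% and 78.9% to 87.3%. In 33 of the 100 no BT474 library had a peak, against 3917 of all 46919 regions.

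The regions with an AP-1 sequence were followed separately, as a description. All 53 of them had a peak in both 24 h EGF-BT474R libraries, compared with 35 of the 47 without the sequence and 92.9% of all 46919 regions. The 47 include 9 regions within 1 Mb of the start of ERBB2, taken up below, of which 2 had such peaks. Of the 53, 52 had no peak in any baseline or 12 h control library of BT474R, compared with 36 of the 47 and 3.39% of all regions. At 24 h, 17 of the 53 had a peak in both EGF and neither HRG library (0.701% of all regions), 20 had one in both libraries of both ligands, and over all 100 regions none had a peak in both HRG and neither EGF library.

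HRG only regions were looked up in the same way. Of the 3401, 96.8% and 77.4% had a peak at the BT474R baseline, against 96.0% and 87.6% of all 46919 regions. In the 1 h controls 98.1% and 96.4% did, against 97.7% and 97.0% of all. In the 12 h controls the shares were 16.0% and 59.6%, a wide spread between lists of 32479 and 40331 peaks, and both below the 66.8% and 82.5% of all regions. They were 94.9% and 72.3% after 24 h of HRG and 80.7% and 77.3% after 24 h of EGF, against 97.5% and 90.2% and 94.9% and 94.2% of all. At 24 h, 157 of the 3401 (4.62%) had a peak in both HRG and neither EGF library, against 0.831% of all regions, and 25 (0.735%) had the reverse, against 0.701%. The part of list length in these shares was not tested.

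**Figure D3:**
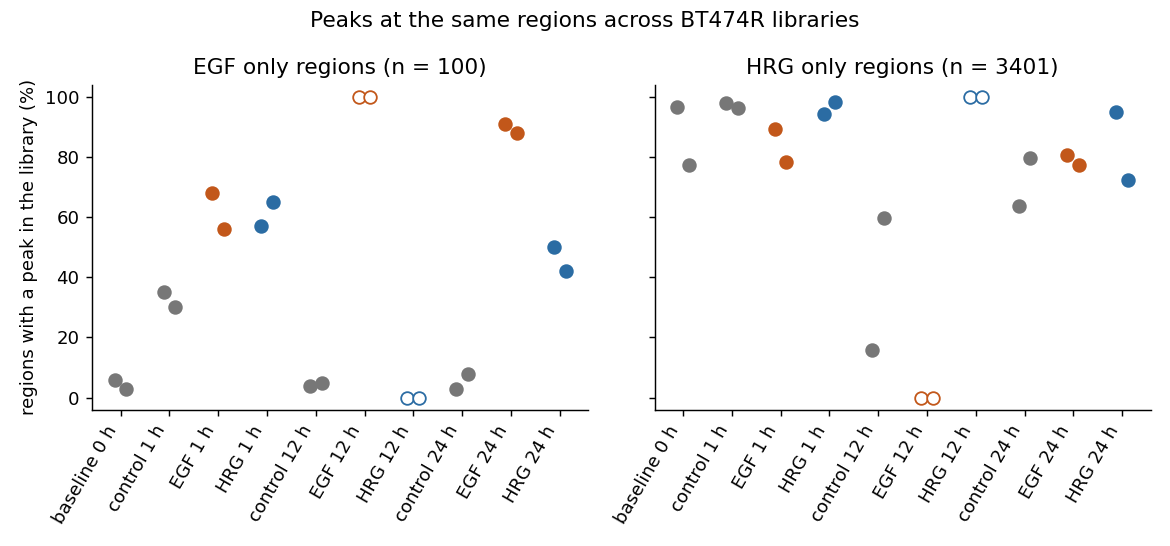
Share of the 100 EGF only regions (left) and the 3401 HRG only regions (right) with a peak in each BT474R library (y axis, percent), by treatment and time, with 1 point per library and open circles for the 4 libraries that chose the regions. EGF only regions are at 3% to 8% in baseline, 12 h and 24 h control libraries and at 91% and 88% after 24 h of EGF, against 94.9% and 94.2% of all merged regions, and HRG only regions are at 96.8% and 77.4% at baseline, against 96.0% and 87.6%.

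Among the 10 EGF only regions with the highest mean rank, the intronic region of ARFGEF2, which encodes an exchange factor for ARF GTPases, came first with rank percentiles of 40.7 and 24.1. It had a peak in both 24 h EGF and both 24 h HRG libraries and in all 20 BT474 libraries. The region in RAB27B, a GTPase of vesicle secretion, ranked at 29.6 and 13.4 and had no peak in any BT474 library. The region in SLC1A2, a glutamate transporter gene, ranked at 24.6 and 17.9, and the region 65.3 kb from the start of RPE65, a retinoid isomerase gene, at 24.7 and 16.7. In each of these 4 regions replicate 1 ranked higher than replicate 2, and the ranks of ARFGEF2 and RAB27B differed between replicates by more than those of the other two.

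Next in this order came an intergenic region 18.2 kb downstream of the nearest annotated start of CDK12, a transcriptional kinase gene beside ERBB2, at 15.3 and 25.1. A region in APOBEC3B, a cytidine deaminase gene, ranked at 28.4 and 11.2 and held AP-1 sequences. It belongs to a family of closely related neighboring genes, so reads there may be split between copies. The other four of the 10 were intergenic regions near HAP1 (23.1 and 14.4) and LY86 (19.6 and 19.7, at 223 kb), an intronic region of EEIG1 (23.1 and 12.5) and a region on chromosome 8 over 100 kb from any protein-coding start (11.3 and 24.3). Of the 10, all except CDK12 and HAP1 had a peak in both 24 h EGF-BT474R libraries.

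Chromosome 17 held 14 of the 100 EGF only regions and 5.88% of all regions. Other chromosomes also held more than their share, among them 6 (11, against 5.31%), 8 (10, against 4.58%) and 20 (8, against 3.97%). Some held less, such as chromosome 3 (1, against 5.40%). Within 1 Mb of the start of ERBB2, the HER2 gene, which is known to be amplified in BT474, lay 9 of the 100, against 3 of the 3401 HRG only regions and 0.558% of all regions. These 9 regions had a median width of 773 bp, against 307 bp for the other 91 and 1134.5 bp for all 262 regions in the window. None of the 9 held the AP-1 sequence, which was found in 18 of the 262. Of the 9, 2 had a peak in both 24 h EGF libraries, compared with 86 of the other 91 and 205 of the 262. Outside this window 53 of 91 EGF only regions (58.2%) held the AP-1 sequence. The part of copy number in these 9 regions was not tested. The window was chosen after the regions were seen.

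The 10 HRG only regions with the highest mean rank were stronger. An intronic region of CTNND2, the gene of delta-catenin, ranked at 64.8 and 63.2, and an intergenic region 4.08 kb upstream of ADCY2, an adenylyl cyclase gene, at 63.6 and 60.9. Regions near DAG1, the dystroglycan gene, and in HECTD4 ranked at 64.4 and 59.5 and at 66.0 and 57.2. These 4 regions had a peak in both baseline libraries of BT474R, and CTNND2 and DAG1 had one in both 24 h EGF libraries as well. The HECTD4 region had no peak in either 24 h EGF library and one in both 24 h HRG libraries.

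The others were near NMUR2 (51.4 and 57.7), SETBP1 (53.1 and 54.7, at 481 kb), SLC20A1 (53.9 and 49.8) and TAFA2 (50.8 and 50.5) and at promoters of CA1 (51.9 and 51.4) and CMBL (51.0 and 49.0). All 10 had a peak in both baseline libraries of BT474R and in 1 or both of the 12 h control libraries. For CTNND2, NMUR2, SLC20A1 and CMBL, 1 of the 12 h control libraries lacked the peak, as both EGF libraries did. The replicates of HRG-BT474R were close to each other in these 10 regions, HECTD4 differing most.

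Few promoters of pathway genes followed either pattern. Of 19962 protein-coding genes, 2 had promoter peaks in EGF-BT474R only (0.01%) and 202 in HRG-BT474R only (1.01%). Of the 330 entries in the 19 gene lists examined, none was among the former and 5 were among the latter. The 5 were CD44, an adhesion receptor gene (rank percentiles 16.9 and 6.63 in HRG-BT474R), NR3C1, which encodes the glucocorticoid receptor (21.2 and 4.82), CDKN2B, an inhibitor of CDK4 and CDK6 (5.24 and 4.88), ELOVL6, a fatty acid elongase gene (2.04 and 8.44), and GBP2, an interferon-induced GTPase gene (3.76 and 2.26). These are low ranks, near the lower end of the lists.

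A further 8 listed genes had an HRG only region at 1 of several promoter regions. For 7 of them the promoters, counted jointly, had a peak in all 4 libraries. The 7 were KRT8 (31.2 and 43.0), AKT2 (30.6 and 23.2), NR4A1 (19.2 and 8.45), PGR (14.0 and 9.40), NR1H3 (13.7 and 8.97), DUSP2 (11.2 and 9.30) and INSIG1 (12.5 and 3.03). For the eighth, EGR3 (8.36 and 0.19), the promoters together had a peak in 3 of the 4 libraries.

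For the receptors and ligands, no region nearest to EGFR, ERBB2, ERBB3 or ERBB4 followed either pattern in the lists as deposited. With equal numbers of peaks, an intronic region of ERBB4 was an EGF region, at low ranks in EGF-BT474R (0.219 and 5.28). Of 11 ERBB ligand genes, 5 had an HRG only region as nearest gene within 100 kb, against 11.8% of all protein-coding genes, and none had an EGF only region (0.421% of all). The 4 highest-ranked were near AREG (30.9 and 27.9), BTC (27.0 and 14.4), NRG2 (26.6 and 13.2) and NRG3 (7.33 and 25.7), and the fifth was near TGFA (14.2 and 7.82). With equal numbers of peaks, 3 of the 11 had an HRG region (3.08% of all genes) and 2 an EGF region (2.73%). The latter 2 were AREG (5.06 and 3.56) and EPGN (15.5 and 9.21), ligands of EGFR.

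Among 20 feedback genes of the ERBB and MAP kinase pathways, 9 had an HRG only region (11.8% of all protein-coding genes), among them DUSP4 (44.6 and 19.8), LRIG1 (23.9 and 16.8), SPRED2 (13.8 and 15.7) and DUSP8 (18.3 and 6.47), and 1 had an EGF only region (0.421% of all). That gene was ERRFI1, which encodes an inhibitor of EGFR kinase activity, and its region 71.3 kb from the start held an AP-1 sequence (10.5 and 5.42). With equal numbers, 2 of the 20 had an EGF region (2.73% of all) and 2 an HRG region (3.08% of all). ERRFI1 (8.80 and 5.42) and LRIG1 (0.979 and 8.44), another inhibitor of EGFR, had the EGF regions. Of the 14 AP-1 subunit genes, JUN had an HRG only region (20.7 and 3.16), and none had an EGF only region. With equal numbers, MAFK had an EGF region (3.32 and 9.31), and 1 of the 14 genes had an HRG region. That is 7.14% on either side, against 2.73% and 3.08% of all protein-coding genes.

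Some lists had many HRG only regions in the lists as deposited and few with equal numbers. For steroid receptors and their targets the counts of genes with an HRG region were 11 of 20 and 0 of 20. The 4 highest-ranked were near TSC22D3 (21.7 and 9.45), GREB1 (17.7 and 12.0), NR3C1 (21.2 and 4.82) and PGR (14.0 and 9.40). For lipid synthesis they were 9 of 21, with ABCA1 (20.8 and 12.9), FADS1 (8.02 and 20.4), NR1H3 (13.7 and 8.97) and SREBF2 (18.9 and 0.718), and 1 of 21. For hypoxia and glycolysis they were 8 of 26, with P4HA1 (23.6 and 24.6), EGLN3 (30.7 and 15.1), EPAS1 (16.7 and 10.5) and ENO1 (14.8 and 7.54), and 2 of 26. With equal numbers, genes with an EGF region numbered 0 of 20, 0 of 21 and 2 of 26 in these lists, against 2.73% of all. Among genes with a promoter peak in all 4 libraries, 13.8% had an HRG only region and 3.59% with equal numbers.

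In further lists, HRG only regions were nearest to 5 of 18 immediate early genes (MCL1, CCN1, NR4A1 and KLF6 the highest-ranked) and to 4 of 17 luminal transcription factor genes (GRHL1, TFAP2C, XBP1 and RUNX1), against 11.8% of all protein-coding genes. They were nearest to 4 of 26 genes of EMT, matrix and motility (CXCR4, CD44, CDH1 and LAMA3), 3 of 17 G1 cell cycle genes (E2F3, CDK6 and CDKN2B) and 2 of 24 NF-kB response genes (IL6 and NFKBIA), which are 15.4%, 17.6% and 8.33%. With equal numbers, 1 gene in each of the first 4 of these lists and none of the NF-kB list had an HRG region. In the same order, 0 of 18, 1 of 17, 2 of 26, 1 of 17 and 1 of 24 genes then had an EGF region. Of 55 genes of interferon response and antigen processing, GBP2 had an HRG only region and GBP1 an EGF only region (5.20 and 12.1), which is 1 of 55 on either side. With equal numbers of peaks, 5 of these 55 had an EGF region (2.73% of all genes) and none an HRG region (3.08% of all). The 5 were GBP1 (3.36 and 12.1 in the EGF lists of equal length), IRF1 (0.326 and 5.44), OAS1 (19.4 and 10.6), TNFSF10 (3.69 and 4.59) and TRIM21 (0.846 and 5.04). Of these 5, only GBP1 had an EGF only region in the lists as deposited. Of the markers, HRG only regions were nearest to KRT8 and CDH1 of the luminal list, to TP63 of the basal list and to PTPRC of the leukocyte list.

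Regions with a peak in all 4 lists were compared by rank, because a score grows with the reads of its library. Each list was ranked over the 34458 shared regions, and limma gave 7 regions higher in EGF-BT474R and 35 higher in HRG-BT474R at an adjusted p below 0.05 (0.0203% and 0.102% of the regions tested). However, in 41 of these 42 regions the lists did not hold the same number of peaks. In all 35 regions higher in HRG-BT474R, both EGF lists held more peaks than either HRG list, and the rank was taken from the highest peak of the region. Unequal numbers of peaks were found in 1445 of the 34458 regions (4.19%). When the scores of the peaks in a region were summed, or when the 32991 regions with exactly 1 peak in each list were tested, limma called no region in either direction, with 5183 and 4957 regions at an unadjusted p below 0.05. Both alternatives were chosen after the data were seen.

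The 10 regions with the smallest p higher in HRG-BT474R were near LSS, MEPCE, PHLDA3, INF2, TMEM160, KREMEN2, HRC, FAM161A, ZZZ3 and PTPRK, and 8 of them were promoters. At LSS, which encodes lanosterol synthase of cholesterol synthesis, the percentiles were 74.0 and 72.7 in EGF-BT474R, with 2 peaks in each list, and 93.7 and 94.1 in HRG-BT474R, with 1 peak in each (limma adjusted p = 0.0238). Those higher in EGF-BT474R were near TSNARE1, SCARB1, TFAP2C, SERINC3, PMEPA1, IER3, SRCIN1, KIAA0232, CRYBG1 and ST3GAL1, the last 3 of which did not pass the test. The SERINC3 region, with 1 peak in each list, ranked at 94.2 and 93.2 in EGF-BT474R and at 84.0 and 83.7 in HRG-BT474R (difference 9.82 ± 0.612 SE percentile points, limma adjusted p = 0.0314). Ranked among the regions with 1 peak in each list, the same region had an adjusted p of 0.147, so its call was lost.

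Although no single region passed, the 32991 regions with 1 peak in each list held the same AP-1 pattern. All values here are percentiles among these regions. Both EGF values lay above both HRG values in 25.5% of them and below in 21.8%. A gap of more than 20 percentile points between the groups was found in 80 regions in favor of EGF-BT474R (0.242%) and in 111 in favor of HRG-BT474R (0.336%). The AP-1 sequence was found in 37 of the 80 (46.3%) and in 3 of the 111 (2.70%), against 12.9% of the 32991. Over all regions without overlap between groups, whatever the gap, the shares were 25.3% for EGF-BT474R and 5.29% for HRG-BT474R.

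These sets were followed in libraries that did not choose them. After 24 h, both EGF values lay above both HRG values in 69 of the 80 EGF regions (86.3%) and in none the reverse, compared with 20.9% and 23.3% of all 32991 regions. Of the 111 HRG regions, 74 had both HRG values above both EGF values at 24 h (66.7%) and 3 the reverse. After 1 h the counts were 52 of 80 (65.0%, against 26.7% of all regions) and 51 of 111 (45.9%, against 16.7%).

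The sets were also set against the 12 h control. In the 80 EGF regions, both EGF values lay above both control values in 74 (92.5%, against 24.9% of all regions), and both HRG values did in 38 (47.5%, against 22.5%). The medians over these regions were 42.1 and 39.2 in EGF-BT474R, 10.2 and 12.9 in HRG-BT474R and 7.17 and 2.22 in the control, the last 2 being the ranks of regions without a control peak. In the 111 HRG regions, both EGF values lay below both control values in 99 (89.2%, against 34.8% of all regions), and both HRG values lay below them in 30 (27.0%, against 32.3%) and above them in 39 (35.1%, against 22.5%). The medians were 13.3 and 15.7 in EGF-BT474R, 46.8 and 45.7 in HRG-BT474R and 44.2 and 43.95 in the control. The EGF and HRG values used here also chose the regions, so these counts are a description.

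The EGFR intron region (chr7:55132650-55133428, 23.4 kb downstream of the nearest start) ranked at 86.7 and 86.1 in EGF-BT474R, 75.5 and 77.0 in HRG-BT474R and 49.1 and 56.8 in the 12 h control. The groups did not overlap, and the difference between ligands was 10.2 ± 1.01 SE percentile points (limma adjusted p = 0.147). After 24 h it ranked at 87.9 and 90.4 with EGF and at 71.3 and 77.7 with HRG. On this scale the SERINC3 region was at 94.8 and 93.8 with EGF, 85.4 and 84.9 with HRG and 45.6 and 43.9 in the control. Both regions ranked above the control with either ligand, and higher with EGF.

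The 6 widest gaps in favor of EGF-BT474R were near ST3GAL1, SLC25A51, PCNX1, NR2E3, SULF2 and APPBP2. The region 123 kb upstream of SULF2, which encodes a heparan sulfate endosulfatase, ranked at 49.2 and 48.7 with EGF and 19.3 and 17.2 with HRG, and at 24 h at 59.6 and 55.8 against 13.1 and 22.2. A region in an intron of EGLN3, an oxygen-sensing prolyl hydroxylase gene, ranked at 57.3 and 57.6 against 14.0 and 28.5 and held an AP-1 sequence. An intergenic region 25.2 kb from the start of IER3, an immediate early gene, ranked at 40.8 and 32.8 against 4.32 and 11.9 and held one too. All had adjusted p-values of 0.147 to 0.149 with limma.

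The 6 widest gaps in favor of HRG-BT474R were near TRIM43, GPR39, CALCB, RIPOR2 (at 112 kb), SDCCAG8 and AUTS2 (at 325 kb). The intronic region of GPR39, a zinc-sensing receptor gene, ranked at 54.3 and 54.7 with HRG and 15.9 and 14.9 with EGF, and at 24 h at 53.0 and 44.9 against 49.2 and 48.6, where the groups overlapped. The SDCCAG8 region ranked at 70.2 and 65.1 with HRG, 17.7 and 28.1 with EGF and 84.1 and 83.6 in the control, and at 24 h at 54.1 and 43.1 with HRG and 1.44 and 3.11 with EGF. TRIM43 belongs to a family of near-identical genes, so reads there may be split between copies.

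Of the genes in the 330 list entries, 4 lay nearest to a region with a gap above 20 in favor of HRG-BT474R (0.426% of all protein-coding genes). EGLN3 and IER3, named above, lay nearest to one in favor of EGF-BT474R (0.336% of all). The promoter region of GREB1, an estrogen receptor target gene, ranked at 63.6 and 73.0 with HRG and 42.7 and 37.7 with EGF. The promoter of ITGA2, the integrin alpha 2 gene, ranked at 41.7 and 46.8 against 18.8 and 18.8. Regions near FOXA1, which encodes a pioneer factor of luminal cells, and RPS6KA3, a kinase gene downstream of ERK, ranked at 47.8 and 47.8 against 0.527 and 26.5, and at 38.2 and 37.2 against 9.14 and 11.5. The 2 EGF-BT474R libraries differed widely from each other at the FOXA1 region. None of the 4 passed the test after adjustment (limma adjusted p = 0.147 for GREB1, ITGA2 and RPS6KA3 and 0.194 for FOXA1).

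**Figure D4:**
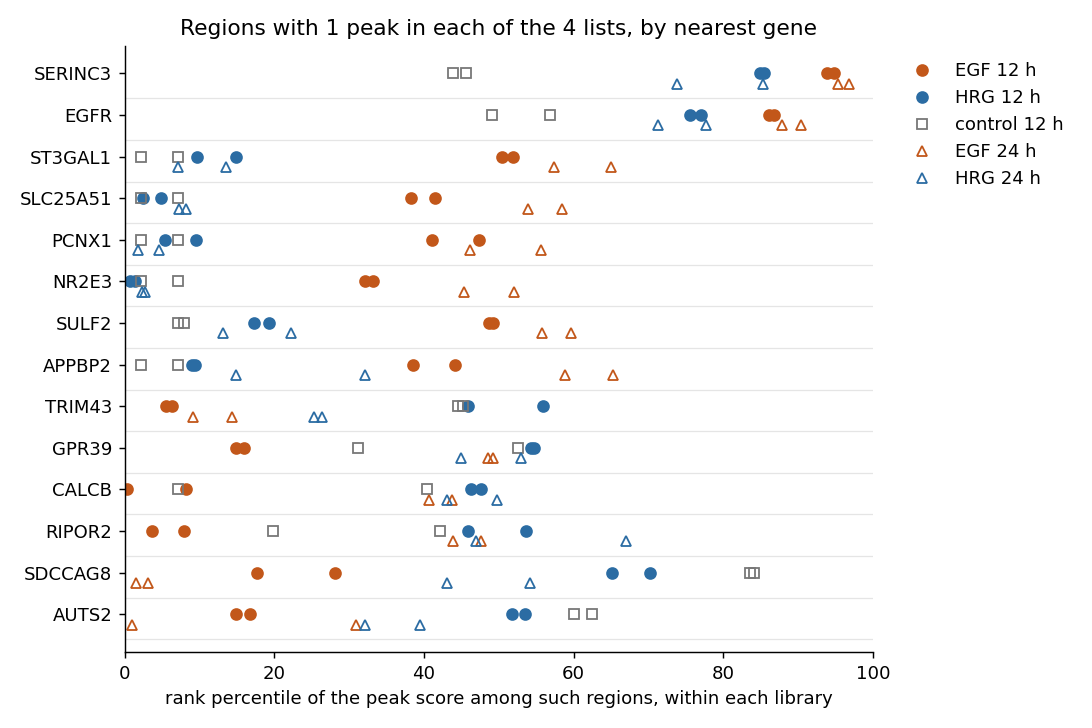
Rank percentile of the peak score (x axis) within each library, among regions with 1 peak in each of the 4 lists, for 14 regions named by the nearest gene: SERINC3 and EGFR, then the 6 widest gaps in favor of each ligand. Filled circles are the 12 h ligand libraries, squares the 12 h control and triangles the 24 h ligand libraries. Squares at 7.17 (control replicate 1) and 2.22 (control replicate 2) are the ranks given to regions without a peak in that control library. The EGFR region ranks at 86.7 and 86.1 with EGF, 75.5 and 77.0 with HRG and 49.1 and 56.8 in the control.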

How the data were processed

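ATAC-seq libraries of BT474R cells treated for 12 h with EGF (2) or HRG (2) were compared, with groups taken from the sample titles. Per the study's methods and processing notes, the authors trimmed reads with Trim Galore 0.6.6, mapped them to GRCh38 with BBMap and called peaks in each library with Genrich, removing mitochondrial reads and blacklisted regions. No source used here gives the Genrich options. The signal column of the deposited peak lists holds the area under a peak's significance curve, called the score here, with a lowest value of 200. The deposited −log10 p and −log10 q values were used only to describe the lists.

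Scores depend on depth, which is unknown, and were used as ranks. Regions were annotated with GENCODE release 44 (promoter within 1 kb of a start, nearest protein-coding start) and searched for 20 motifs. Where genes were counted by nearest region, the start had to lie within 100 kb, but region names had no such limit. Library values were compared by exact permutation and shared regions with limma 3.58.1 (R 4.3.3) on rank percentiles, with Benjamini-Hochberg adjustment. Members, gene lists, motifs and tests were chosen with earlier results of these data known. Regions named in the text were, per direction, the 10 one-sided regions of highest mean rank, the 10 of smallest limma p, and listed genes with such a region at a promoter or, up to 4 per list, nearby. The rank-gap regions, the fifth gene of some lists and genes counted with equal numbers of peaks were added after their values were seen. The sequences planned for the first limma regions (SCARB1, TFAP2C, LSS and MEPCE) held no AP-1 match. They were replaced by those of regions with a single peak per list. Same-numbered replicates did not deviate together (correlation -0.014), so they were not paired. The presence and rank steps were tested on simulated data. Python 3.11.15 and samtools 1.23.1 were used. The count for 1 gene list is not reported here.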

Additional observations from a re-analysis of the deposited data

How the results depend on the processing

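The direction of the differences in peak number and promoter share held under the alternatives run, as did HRG only regions outnumbering EGF only regions. The number of EGF only regions was 100 in the lists as deposited, 46 with a score of at least 400, 672 with equal numbers of peaks, 279 with peaks cut to 200 bp either side of the summit and 187 to 418 without 1 library (188 without EGF-BT474R replicate 1, 418 without EGF-BT474R replicate 2, 363 without HRG-BT474R replicate 1 and 187 without HRG-BT474R replicate 2). HRG only regions numbered 812 with equal numbers and 4310 to 7086 without 1 library, the highest without HRG-BT474R replicate 2, against 3401. AP-1 shares of EGF only regions were 39.1% with a score of at least 400, 38.4% with equal numbers, 24.4% in summit windows and 38.8% to 44.4% without 1 library. Those of HRG only regions were 5.54%, 3.82%, 6.26% and 6.68% to 7.69%, and 10.2% within 250 bp of the summit.

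Rank shifts to EGF-BT474R and to HRG-BT474R (7 and 35 by limma) numbered 17 and 78 with normal scores, 9 and 120 with ranks over the whole list, 2 and 25 with the control libraries in the fit, and 0 and 0 with summed scores or 1 peak in each list. They were 0 to 0 in either direction without 1 library (3664 to 4434 regions at an unadjusted p below 0.05), where the lone sample is assumed to vary like the other group. With the replicate block they were 0 and 0 (4347 at an unadjusted p below 0.05). Within same-numbered pairs, the difference in peak number and in promoter share had p = 0.5 (exact permutation test, the smallest 2 pairs allow), and the block leaves the presence counts at 100 and 3401. The groups of 2 libraries, the unknown depth and the lowest listed score of 200 limit what presence can show.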
